A study of Caenorhabditis elegans with 12 samples.

Results

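The genes named *math-* and *bath-* of *C. elegans* were followed in populations of whole young adult worms of 4 genotypes. Members were all rows of the gene count file whose sequence name carries a gene name starting with *math-* or *bath-* in the RefSeq annotation of WBcel235, and they were 92 of 46653 rows, 49 *math-* and 43 *bath-* genes. The libraries came from *age-1(hx546); rde-4(ne301)* double mutants, *rde-4(ne301)* mutants, *age-1(hx546)* mutants and the N2 wild type (WT), with 3 separate worm populations each, 12 in all, grown on OP50 bacteria at 20 °C and collected in the first day of adulthood before embryos were visible. *ne301* is a null allele of *rde-4*, whose product binds double-stranded RNA beside Dicer in the production of siRNAs, and *hx546* mildly lowers the function of *age-1*, the phosphatidylinositol 3-kinase of insulin/IGF-1 signaling (IIS), which leads to activation of DAF-16/FOXO and a long life. The comparisons ask what the loss of RDE-4, the reduction of IIS and both together do to these transcripts.

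The MATH domain is a fold that holds on to other proteins, and it takes its name from the meprin proteases and the TRAF adaptors in which it was recognized. BATH proteins join it to a BTB domain, which binds the cullin CUL-3, so that a BATH protein can bring a substrate to the CUL-3 ubiquitin ligase. A well-studied example in *C. elegans* is MEL-26, which delivers the microtubule-severing protein MEI-1 for destruction between meiosis and mitosis in the embryo. Both families are large in nematodes and small in most other animals, and many members have no known substrate. The annotation tables used here give names and gene classes but no protein domains, so membership rests on the gene names.

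Libraries held 74501098 to 82446102 counts. Levels are given as CPM, a count relative to the library size after scaling by the trimmed mean of M values, with the SD over 3 populations. The *rde-4* transcript served to check the *rde-4* labels. It was at 28.1 ± 2.39 CPM in *age-1; rde-4* and 30.7 ± 1.77 CPM in *rde-4* libraries, against 145 ± 6.53 CPM in *age-1* and 180.1 ± 19.2 CPM in WT libraries (SD, n = 3 each). The *age-1* transcript averaged 126 CPM in *age-1; rde-4*, 145 in *rde-4*, 131 in *age-1* and 142 in WT libraries, with overlapping ranges. Its level therefore does not check the *age-1* labels. The first *age-1; rde-4* library stood apart from the others of its group: its chi-square per gene against them was 255 and 209, and the 2 others differed by 43.5. It also held less of 16 oocyte genes (5086 summed CPM, against 9031 and 8888) and of 11 early embryo genes (1.85 summed CPM, against 13 and 10.2). Some results that involve the double mutant are therefore also given without this library. WT replicate 1 stood apart as well, with a chi-square per gene of 145 and 124 against the other WT libraries, which differed by 55. It enters every comparison with WT. Of 7 genes of male-specific neurons, *cwp-1* and *cwp-3* had no count in any library, and the summed level of the list was at most 0.567 CPM.

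The family was unevenly placed. On chromosome II lay 79 members, against 5 on I, 3 on III, 1 on IV, 3 on V and 1 on X. With a gap of at most 100000 bases between neighbours, 57 members (43 *math-* and 14 *bath-*, 15 of them pseudogenes) formed 1 group on chromosome II of WBcel235 from 1706709 to 2155220, between *math-29* and *math-18*. A group of 8 *bath-* genes lay at II from 3343731 to 3381403, a group of 6 at II from 1510287 to 1606179, and a group of 3 at II from 2514977 to 2524475. The remaining 18 members stood alone or in a pair. Of all members, 72 were protein-coding and 20 were annotated as pseudogenes. Coding length ran from 315 to 3414 bases in *math-* genes (median 1149, n = 37) and from 726 to 2118 bases in *bath-* genes (median 939, n = 35).

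The families also differed in how much transcript they had. Per kilobase of coding sequence the median level was 0.212 CPM for the 37 protein-coding *math-* genes and 7.09 CPM for the 35 protein-coding *bath-* genes. Mean CPM was 1 or less for 32 of 49 *math-* and 9 of 43 *bath-* genes, and over 10 for 4 *math-* and 16 *bath-* genes. Levels were very unequal within the set: 4 members were over 100 CPM, 16 at 10 to 100, 31 at 1 to 10 and 41 at 1 or less. The 5 highest members gave 62.0% of all the CPM of the set. Members in the 4 groups of neighbours had a median of 1.78 CPM per kilobase (n = 55) and those outside them a median of 5.75 CPM per kilobase (n = 17). Place and family went together, as 43 of 57 members of the largest group were *math-* genes. Mean CPM had a median of 20.1 in the group of 8 *bath-* genes, against 5.96 outside the groups. The parts of place and family in these levels were not tested.

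**Figure D1:**
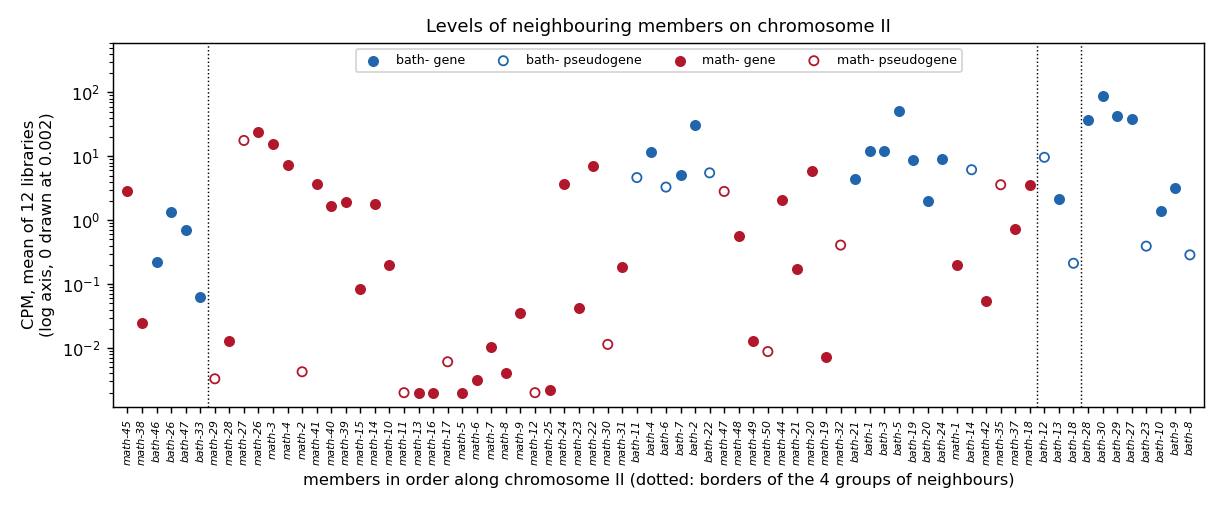
Mean CPM over the 12 libraries (log axis) of the 74 members in the 4 groups of neighbours on chromosome II, in order along the chromosome; filled points are protein-coding genes and open points pseudogenes. The 11 neighbours from *math-11* to *math-25* lie between 0 and 0.0353 CPM, and *bath-28*, *bath-30*, *bath-29* and *bath-27* at the right lie between 37.1 and 89.1 CPM.

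The largest group held a stretch with almost no counts. Between *math-11* and *math-25*, on chromosome II from 1873480 to 1897758, 11 members in a row had 60 counts between them over all 12 libraries, with no more than 9 in any library for any gene. Of these, *math-11*, *math-12*, *math-13* and *math-16* had no count at all. This allows a level of up to 0.0403 CPM in the smallest library (3 counts, counting error only). How reads with several matches were counted is not given in the sources used here, so the limit does not cover such reads. On one side *math-10* came next with 182 counts in all, and beyond it *math-14* averaged 1.80 CPM. On the other side *math-24* averaged 3.70 CPM. Over the whole set 23 members had too few counts for a test (22 *math-* and 1 *bath-*), and the highest total among them was 76 counts, in *math-15*. The other 69 were tested, 27 *math-* and 42 *bath-* genes, and 13 of these 69 were pseudogenes.

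**Figure D2:**
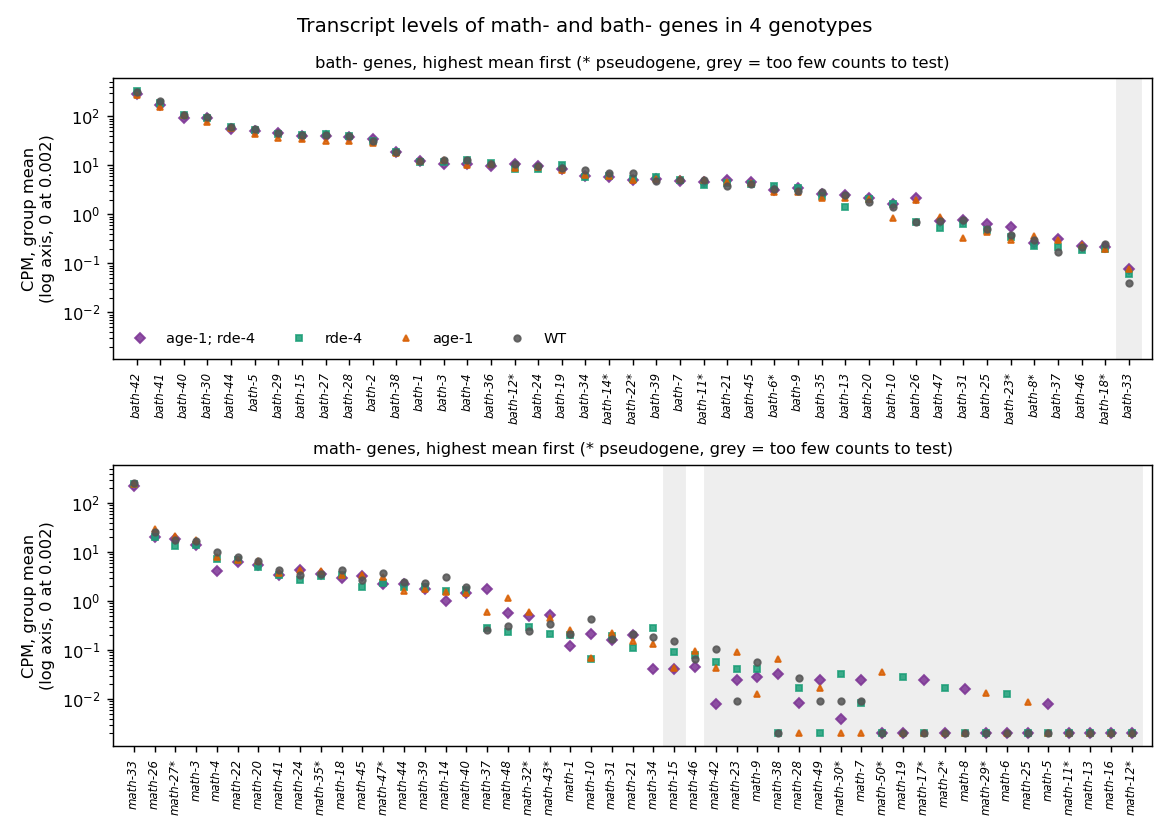
Mean CPM of each genotype (log axis) for all 43 *bath-* and 49 *math-* genes, highest first, with genes too low to test on a grey ground. Genotype means of one gene lie close together for most genes over 10 CPM and spread among genes at 1 CPM or less.

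Levels between replicates were close for abundant members and loose for rare ones. The median SD of log2 CPM between replicates (with 0.05 CPM added) was 0.109 for tested members over 10 CPM, 0.631 for those at 1 CPM or less, and 0.227 over all tested members. A change of a given size could therefore be seen in the first set far more readily than in the second.

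Among protein-coding members the level per kilobase was highest for *bath-42* (C50C3.8, III from 8161455 to 8163383), at 242 CPM per kilobase over the 12 libraries. It had 262, 292 and 295 CPM in *age-1; rde-4*, 323, 325 and 327 CPM in *rde-4* libraries, 285, 258 and 267 CPM in *age-1*, and 338, 297 and 312 CPM in WT libraries. The *age-1* and *age-1; rde-4* libraries were all below the lowest WT library, and the *rde-4* libraries lay within the WT range. The log2 fold change was −0.22 in *age-1* against WT (95% interval −0.41 to −0.04, adjusted p of 0.0947 by the quasi-likelihood test of edgeR), which did not pass the threshold of 0.05. After it came *bath-41* (143 CPM per kilobase), *bath-30* (94.5), *bath-40* (85.4), *math-33* (71.9), *bath-5* (56.0), *bath-44* (48.5) and *bath-27* (43.5).

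*math-33* (H19N07.2, V from 11113907 to 11118824) is the ortholog of the mammalian deubiquitinase USP7 and is known to remove ubiquitin from DAF-16, so it is the member tied most directly to IIS. It had 165, 246 and 252 CPM in *age-1; rde-4*, 224, 258 and 268 CPM in *rde-4* libraries, 259, 239 and 247 CPM in *age-1*, and 238, 261 and 286 CPM in WT libraries. Only the first *age-1; rde-4* library was below 200 CPM, and otherwise all 4 genotypes overlapped. Its log2 fold change against WT was −0.24 in *age-1; rde-4* (95% interval −0.56 to 0.07), −0.07 in *rde-4* (−0.38 to 0.25) and −0.08 in *age-1* (−0.39 to 0.24), with adjusted p of 0.317, 0.940 and 0.758 from edgeR, so a change as large as 2-fold lay outside all 3 intervals. Without the first *age-1; rde-4* library the double mutant differed from WT by −0.07. The gene shares 59 exon bases with *scb-1* on the opposite strand.

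The same library set the spread of *bath-40* (Y105E8B.4, I from 14647782 to 14651288), which had 65.0, 109 and 103 CPM in *age-1; rde-4* libraries, against 86.2, 112 and 127 CPM in WT libraries. The groups overlapped, and the log2 fold change was −0.23 (adjusted p = 0.478 from edgeR) with that library and −0.03 without it. That library was also the lowest in the oocyte list, and the part of oocyte content in these levels was not tested. In RNA from whole worms, fewer cells of a type and less RNA per cell cannot be told apart.

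**Figure D3:**
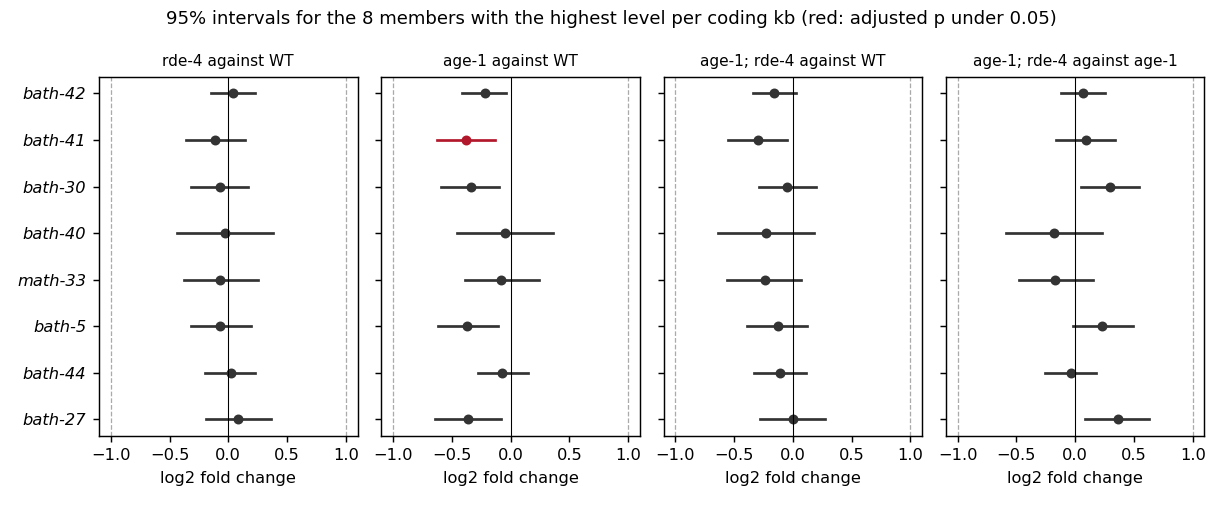
Log2 fold changes (points) with 95% intervals (lines) for the 8 members with the highest CPM per kilobase of coding sequence, in 4 comparisons; dashed lines mark 2-fold either way and red an adjusted p under 0.05. All intervals lie within 2-fold, and *bath-41* in *age-1* against WT is the one called.

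In *rde-4* mutants against WT, no *math-* or *bath-* gene passed the test. edgeR called 0 of 69 tested members higher and 0 lower, where 4.49% of all 16741 tested genes were called (3.63% higher and 0.866% lower). At an unadjusted p under 0.05 there were 0 higher and 6 lower members (9.46% and 4.96% of all genes). DESeq2 called 0 members higher and 4 lower, where it called 1018 and 299 of all 16741 genes. The median log2 fold change was −0.11 over members (−0.33 over *math-* and −0.04 over *bath-* genes), against −0.02 over all tested genes. For 46 of 69 members the 95% interval stayed within 2-fold either way, as it did for 58.4% of all genes. Among markers of cells, 6 of 35 sperm genes (median log2 fold change 0.95) and 6 of 115 tested cuticle collagens rose, beside 3.63% of all genes. Of 5 intestine genes 1 fell, and 0 of the oocyte, early embryo, muscle and neuron lists were called. The part of these cells in the levels of members was not tested.

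Groups did not overlap for 9 members, all lower in *rde-4* (7.81% of all genes were lower in this way and 8.49% higher). The steepest was *math-10* (C16C4.15, II from 1871542 to 1873348), with 3, 2 and 11 counts in *rde-4* libraries, against 34, 21 and 42 counts in WT libraries. Every *rde-4* library was below every WT library, with a log2 fold change of −2.68 and an SE of 0.83 (edgeR, adjusted p = 0.107), which did not pass. *bath-34* (W02A11.5, I from 12750036 to 12752105) had 5.51, 5.86 and 5.86 CPM in *rde-4* libraries, against 9.06, 7.31 and 8.11 CPM in WT libraries, a log2 fold change of −0.51 with an SE of 0.16 (edgeR, adjusted p = 0.0995) that did not pass either.

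In *age-1* mutants against WT, 2 members rose and 2 fell. *math-48* and *bath-26* were higher by 3.67-fold and 2.75-fold, both under 1 CPM on average in WT, and the abundant genes *bath-28* and *bath-41* were lower, at 0.770 and 0.767 of the WT level. These 4 of 69 members are 5.80%, where 14.8% of all tested genes were called (12.2% higher and 2.58% lower). At an unadjusted p under 0.05, 3 members were higher and 12 lower (21.1% and 12.2% of all genes, 33.2% together). The 95% interval stayed within 2-fold for 44 members and for 52.7% of all genes. Groups did not overlap for 3 higher and 14 lower members (23.7% and 17.8% of all genes). The median log2 fold change was 0.03 over *math-* and −0.15 over *bath-* genes, against 0.03 over all tested genes.

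*math-48* (ZK250.6, II from 1945438 to 1946527) had 1.00, 1.42 and 1.07 CPM in *age-1* libraries, against 0.136, 0.480 and 0.332 CPM in WT libraries. All *age-1* libraries were above all WT libraries, by more than the spread within either group. The log2 fold change was 1.87 with an SE of 0.45 (edgeR, adjusted p = 0.0215), and it was no longer called without WT replicate 1 (1.54), *age-1* replicate 2 (1.71) or WT replicate 3 (1.92), with adjusted p up to 0.0922.

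*bath-26* (T07H3.6, II from 1599461 to 1600761) had 1.17, 1.96 and 2.63 CPM in *age-1* libraries, against 0.746, 0.590 and 0.758 CPM in WT libraries. The groups did not overlap, and the log2 fold change was 1.46 with an SE of 0.41 (edgeR, adjusted p = 0.0374). The call was lost without any 1 of 6 libraries (*age-1; rde-4* replicate 2, *age-1* replicates 2 and 3, and each WT replicate), with a log2 fold change of 1.16 to 1.53. The gene shares 28 exon bases with *bath-46* on the opposite strand, which averaged 0.242 CPM in *age-1* and 0.221 CPM in WT libraries.

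*bath-28* (F14D2.13, II from 3343731 to 3344967) had 33.3, 30.2 and 30.2 CPM in *age-1* libraries, against 45.2, 37.1 and 39.2 CPM in WT libraries. The *age-1* libraries were all below the WT libraries, and the log2 fold change was −0.38 with an SE of 0.11 (edgeR, adjusted p = 0.0360). *bath-41* (F37A4.9, III from 6720415 to 6722258) had 169.9, 145 and 156 CPM in *age-1* libraries, against 243, 177 and 195 CPM in WT libraries. Here too the groups did not overlap, with a log2 fold change of −0.38 and an SE of 0.12 (edgeR, adjusted p = 0.0438). In both genes WT replicate 1 was the highest library, and without it the log2 fold changes were −0.27 (adjusted p = 0.169) and −0.22 (adjusted p = 0.229). The call of *bath-28* was lost without any 1 of 9 libraries (all but the first *age-1; rde-4* and the second *rde-4* and WT libraries), and that of *bath-41* without any 1 of 11 (all but WT replicate 2).

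The 4 highest genes of the *bath-* group at II from 3343731 differed by like amounts in the fit of all libraries. In *age-1* against WT the log2 fold change was −0.38 for *bath-28*, −0.34 for *bath-30*, −0.31 for *bath-29* and −0.36 for *bath-27*, and in all 4 the *age-1* libraries lay below the WT libraries (lower without overlap in 17.8% of all genes). Only *bath-28* passed the threshold, and the adjusted p of the other 3 was 0.0589, 0.0717 and 0.0737 from edgeR. *bath-30* (F14D2.12, II from 3345218 to 3346378), which lies next to *bath-28* on the same strand, had 82.0, 73.0 and 72.5 CPM in *age-1* libraries, against 113, 83.7 and 91.8 CPM in WT libraries. *bath-27* shares 610 exon bases with *lido-14* on the same strand, and *bath-28* shares 24 with F14D2.15. *bath-5* of the largest group (F59H6.11, II from 2030753 to 2031952) had 45.9, 40.9 and 44.1 CPM in *age-1* libraries, against 64.8, 49.1 and 54.7 CPM in WT libraries, a log2 difference of −0.37 that missed the threshold (edgeR, adjusted p = 0.0552). *bath-44* (C07D10.2, II from 7394955 to 7397351) had 58.2, 55 and 56.7 CPM in *age-1* libraries, against 61, 57.9 and 59.2 CPM in WT libraries, with overlap between the groups at 57.9 to 58.2 CPM. WT replicate 1 was the highest WT library for *bath-30*, *bath-29*, *bath-27* and *bath-5*, and without it their differences shrank to −0.19, −0.19, −0.17 and −0.23 on the log2 scale, with adjusted p of 0.316, 0.353, 0.391 and 0.302 from edgeR. Without WT replicate 2 they were −0.44, −0.39, −0.47 and −0.47, and all 4 passed the threshold (adjusted p = 0.0245, 0.0452, 0.0341 and 0.0283 from edgeR). *bath-5* also passed without *age-1; rde-4* replicate 1 (adjusted p = 0.0484 from edgeR).

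The count of lower members in *age-1* rested on single libraries. It was 10 of 71 tested members without WT replicate 2, where 1254 of 17118 genes were called lower (24.5% in either direction). It was 0 without any *age-1* library, the second *age-1; rde-4* library, the first *rde-4* library, or WT replicates 1 or 3. It was 1 without the third *age-1; rde-4* library or *rde-4* replicates 2 or 3. The count of higher members was 0 without the second *age-1* library or WT replicates 1 or 3, and 1 without *age-1; rde-4* replicate 2 or *age-1* replicate 3. The share of all genes called moved as well, to 2.53% without WT replicate 1, 2.28% without *age-1* replicate 2, 2.06% without WT replicate 3, 8.29% without *age-1* replicate 1 and 7.41% without *age-1* replicate 3, so the 14.8% set beside the members also rests on single libraries. Some lists of markers of other cells had calls in this contrast, where 12.2% of all genes were called higher and 2.58% lower. Of 35 sperm genes 24 rose, with a summed level of 625 to 733 CPM in *age-1* and 258 to 419 CPM in WT libraries, and none of the 35 was at 0 in any library. Of 115 tested cuticle collagens 30 rose, with a summed level of 23638 to 26213 CPM in *age-1* and 12939.8 to 20072 CPM in WT libraries, and WT replicate 1 was the lowest of these 6 libraries in both lists. Of 6 body wall muscle genes 3 rose, of 7 neuron genes 2 rose, and of 5 intestine genes 1 rose and 1 fell. Of 16 oocyte genes 0 were called (median log2 fold change −0.17), and of 8 tested early embryo genes 0 (median −1.23). The part of these cells in the levels of *math-* and *bath-* genes was not tested.

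**Figure D4:**
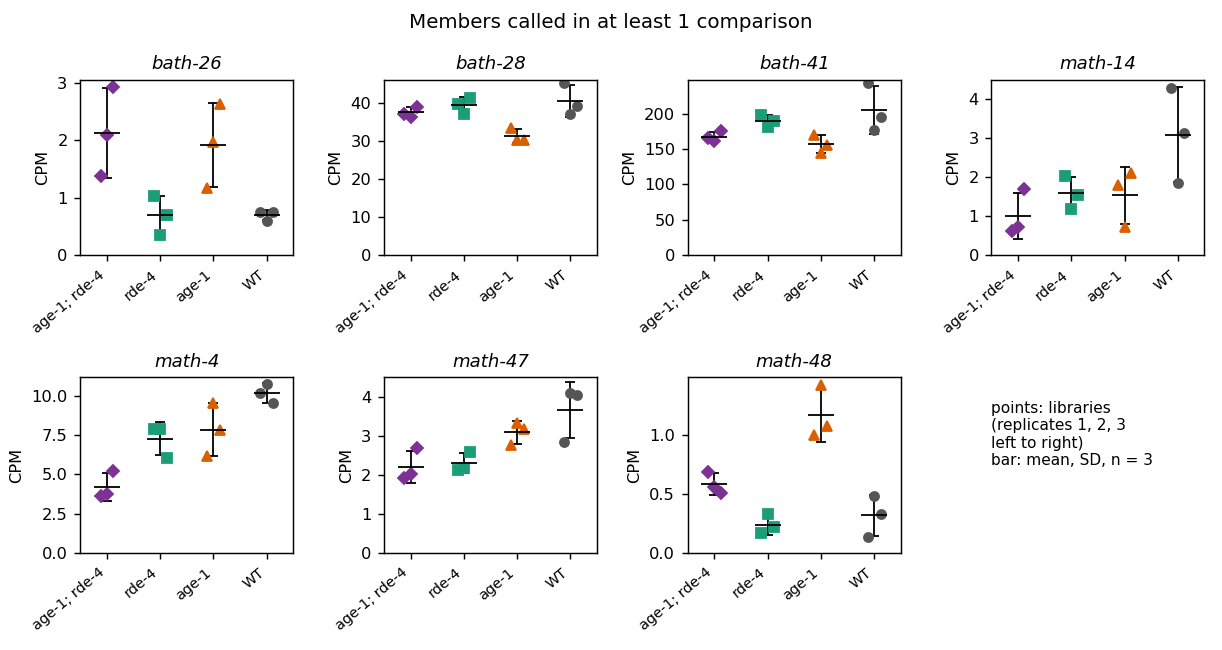
CPM per library (points, replicates 1 to 3 from left to right) with mean and SD (bars, n = 3) for the 7 members called in at least 1 comparison. *math-4* is highest in WT and lowest in *age-1; rde-4*, *bath-26* is high in both genotypes that carry *age-1(hx546)*, and *math-48* is highest in *age-1*.

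In *age-1; rde-4* double mutants against WT, *bath-26* rose and *math-4*, *math-14* and *math-47* fell. These 4 of 69 members are 5.80%, where 12.1% of all tested genes were called (8.95% higher and 3.17% lower). At an unadjusted p under 0.05, 3 members were higher and 7 lower (15.9% and 10.6% of all genes). The 95% interval stayed within 2-fold for 44 members and for 54.4% of all genes. Groups did not overlap for 3 higher and 9 lower members (16.2% and 11.9% of all genes). The median log2 fold change was −0.26 over *math-* and −0.04 over *bath-* genes, against −0.02 over all tested genes. Without the first *age-1; rde-4* library 1 member was higher and 1 lower, and *math-4* was the one lower (8.40% of all genes were called). The share of all genes called was 6.93% without WT replicate 1, 5.73% without WT replicate 3 and 7.37% without *age-1; rde-4* replicate 2. Of 35 sperm genes 11 rose, with a summed level of 468 to 712 CPM in *age-1; rde-4* and 258 to 419 CPM in WT libraries. Of 115 tested cuticle collagens 11 rose, beside 8.95% of all genes called higher. Their summed level was 18592 to 30701 CPM in *age-1; rde-4* and 12939.8 to 20072 CPM in WT libraries. Of 5 intestine genes 1 rose and 2 fell, beside 3.17% of all genes called lower. Calls were 0 of 6 body wall muscle, 0 of 7 neuron, 0 of 16 oocyte and 0 of 8 tested early embryo genes. The part of these cells in the levels of *math-* and *bath-* genes was not tested.

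*math-4* (C08F1.5, II from 1778772 to 1782574) had 3.64, 3.73 and 5.24 CPM in *age-1; rde-4* libraries, against 10.2, 10.8 and 9.53 CPM in WT libraries. The highest double mutant library was well below the lowest WT library, and the log2 fold change was −1.28 (SE 0.21, 95% interval −1.73 to −0.82, edgeR adjusted p = 0.00260), or 0.413 of the WT level. It had 7.88, 7.87 and 6.05 CPM in *rde-4* libraries and 6.16, 9.58 and 7.85 CPM in *age-1* libraries, so the single mutants lay between the double mutant and WT, with *age-1* reaching into the WT range. The log2 fold changes of the single mutants against WT were −0.49 in *rde-4* (adjusted p = 0.294) and −0.37 in *age-1* (adjusted p = 0.231, both from edgeR), which did not pass, and the interaction was −0.42 (95% interval −1.06 to 0.22, adjusted p = 0.624). This was the call among members that held in all 18 alternatives, with a log2 fold change between −1.46 and −1.19 and adjusted p between 6.99e-08 and 0.0148. Without the first *age-1; rde-4* library it was −1.19.

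The pseudogene *math-47* (ZK250.5, II from 1940809 to 1941958) had 1.93, 2.02 and 2.68 CPM in *age-1; rde-4* libraries, against 2.85, 4.10 and 4.05 CPM in WT libraries. The groups did not overlap, and the log2 fold change was −0.73 with an SE of 0.22 (edgeR, adjusted p = 0.0485). Its level in *rde-4* libraries was 2.12, 2.19 and 2.59 CPM, also below every WT library (log2 fold change −0.67, adjusted p = 0.129). The call in the double mutant was lost without any 1 of 10 libraries (all but WT replicate 1 and *age-1; rde-4* replicate 3), with log2 fold changes of −0.73 to −0.63.

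*math-14* (C16C4.4, II from 1869420 to 1870805) lies beyond *math-10* from the stretch with almost no counts. It had 0.614, 0.719 and 1.68 CPM in *age-1; rde-4* libraries, against 4.27, 1.84 and 3.11 CPM in WT libraries. The groups came close but did not overlap, and the log2 fold change was −1.61 with an SE of 0.47 (edgeR, adjusted p = 0.0477). This call was lost without any 1 of 9 libraries (all but the third *age-1; rde-4* and the second *age-1* and WT libraries), with log2 fold changes of −1.61 to −1.26.

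*bath-26* had 1.37, 2.08 and 2.92 CPM in *age-1; rde-4* libraries, above the 0.590 to 0.758 CPM of WT libraries, with a log2 fold change of 1.60 and an SE of 0.41 (edgeR, adjusted p = 0.0271). In *rde-4* libraries it had 1.02, 0.357 and 0.699 CPM, a range that took in the WT values (log2 fold change −0.02, 95% interval −0.93 to 0.90). The call was lost without any WT replicate or without *age-1; rde-4* replicates 2 or 3, with log2 fold changes of 1.31 to 1.69. The double mutant shares its WT libraries with *age-1* in these comparisons, so the 2 calls of *bath-26* are not independent of each other. Counts of members called in the double mutant moved with single libraries too: 0 were higher without *age-1; rde-4* replicates 2 or 3 or WT replicates 1 or 3. Only 1 was lower without any *rde-4* library, *age-1; rde-4* replicates 1 or 2, *age-1* replicates 1 or 3, or WT replicate 3.

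*math-37* (R52.9, II from 2116884 to 2122191) varied widely among the double mutant libraries, with 0.270, 2.07 and 2.99 CPM in *age-1; rde-4*, against 0.448, 0 and 0.319 CPM in WT libraries. The first library lay among the WT values and the other 2 far above them, and the log2 fold change of 2.79 with an SE of 0.99 (edgeR, adjusted p = 0.102) did not pass. The summed level of the 11 early embryo genes was also lower in the first library of this group, at 1.85 CPM beside 13 and 10.2 CPM in the others, and WT libraries had 4.35 to 6.73 CPM, with *med-1* at 0 in 10 libraries and *med-2* and *tbx-35* in 8 each. The part of embryo content in this gene's level was not tested.

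**Figure D5:**
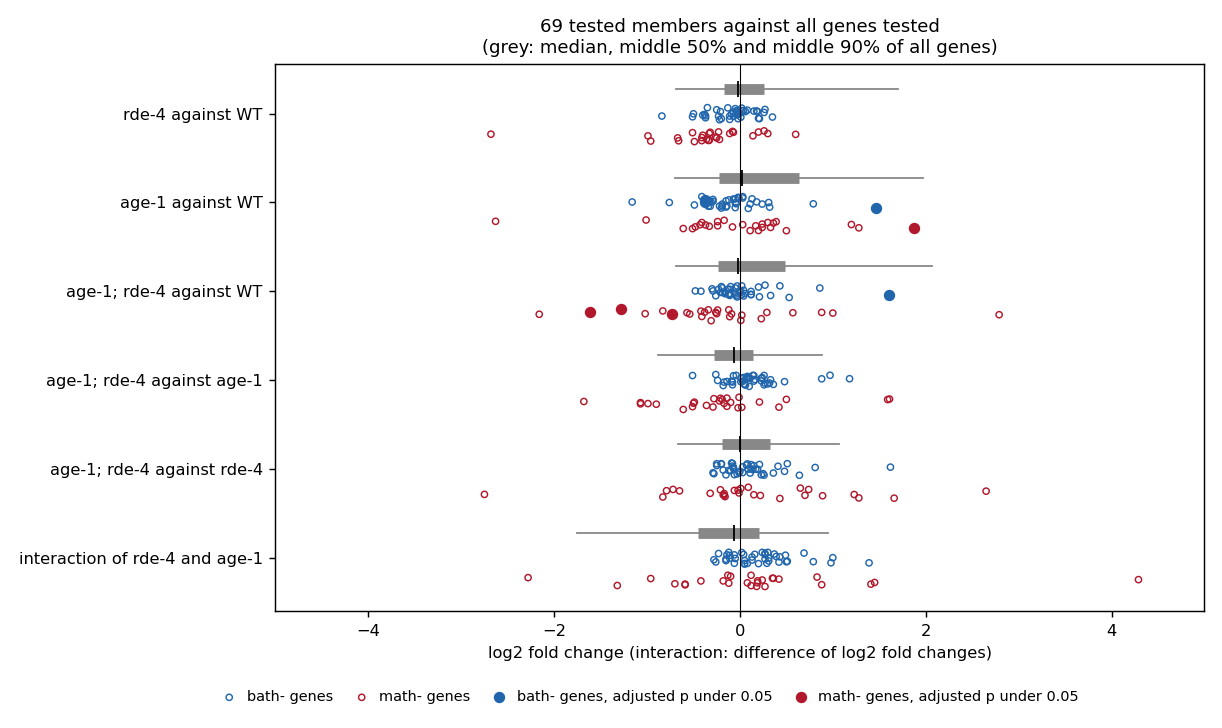
Log2 fold changes of the 42 *bath-* and 27 *math-* genes tested, by comparison, with the median, the middle 50% and the middle 90% of all tested genes in grey; filled points have an adjusted p under 0.05. The filled points are 4 in *age-1* and 4 in *age-1; rde-4* against WT.

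With RDE-4 removed in the *age-1* background, no member passed the test. In *age-1; rde-4* against *age-1*, edgeR called 0 of 69 members higher and 0 lower, where 0.424% of all genes were called (0.317% higher and 0.108% lower). At an unadjusted p under 0.05 there were 7 higher, all *bath-*, and 4 lower, all *math-* (5.22% and 5.82% of all genes). DESeq2 called 0 members higher and 1 lower, where it called 285 and 158 of all 16741 genes. Groups did not overlap for 9 *bath-* genes, all higher in the double mutant, and for 6 *math-* genes, all lower (9.36% of all genes were higher in this way and 12.4% lower). The median log2 fold change was 0.08 over *bath-* and −0.21 over *math-* genes, against −0.06 over all tested genes. The 95% interval stayed within 2-fold for 45 members and for 58.9% of all genes. The split by family was noticed in the values and has no test. Among the lists of cell markers 0 genes were called. Their median log2 fold changes were 2.18 for 8 early embryo, −0.63 for 6 muscle, −0.38 for 5 intestine and −0.23 for 35 sperm genes. They were −0.22 for 115 cuticle collagens, −0.10 for 7 neuron and −0.02 for 16 oocyte genes. The part of these cells in the levels of members was not tested.

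The 9 *bath-* genes were *bath-2*, *bath-5*, *bath-10*, *bath-15*, *bath-23*, *bath-27*, *bath-28*, *bath-29* and *bath-30*, with log2 fold changes of 0.23 to 0.97. *bath-29* (F14D2.4, II from 3350252 to 3358981) had 46.9, 44 and 47.7 CPM in *age-1; rde-4* libraries, against 34.8, 37.8 and 37.6 CPM in *age-1* libraries, a log2 fold change of 0.33 with an SE of 0.11 (edgeR, adjusted p = 0.265). *bath-27* (F14D2.1, II from 3359139 to 3361417) had 42, 38.3 and 41.5 CPM in *age-1; rde-4* libraries, against 32.2, 31.9 and 30.9 CPM in *age-1* libraries, which gave 0.36 with an SE of 0.13 on the log2 scale (edgeR, adjusted p = 0.315). Both lay within the WT ranges of 41.1 to 51.2 and 35 to 49.6 CPM. The *age-1* libraries are shared between this comparison and the one with WT, so the 2 sets of differences are not separate observations.

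The 6 *math-* genes were *math-3*, *math-4*, *math-18*, *math-26*, *math-47* and *math-48*, with log2 fold changes of −0.99 to −0.21. *math-4* had the lowest adjusted p of any member here, with a log2 fold change of −0.90 and an SE of 0.21 (edgeR, adjusted p = 0.0919), and it was −0.82 without the first *age-1; rde-4* library. *math-48* had 0.687, 0.560 and 0.504 CPM in *age-1; rde-4* libraries, below every *age-1* library, and it differed by −0.99 with an SE of 0.43 on the log2 scale (edgeR, adjusted p = 0.431).

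*math-26* (F36H5.1, II from 1771647 to 1774944) and its neighbours varied within WT. It had 22, 19.8 and 19.7 CPM in *age-1; rde-4*, 25.6, 30.5 and 31 CPM in *age-1*, and 20.8, 35.8 and 21.0 CPM in WT libraries. WT replicate 2 was the highest library, as it was for the adjoining pseudogene *math-27* (13.5, 26.2 and 14.3 CPM in WT) and for *math-3* (15.5, 21.1 and 13.3 CPM in WT). *math-3* shares 20 exon bases with *math-26* and 469 with F36H5.14 on the same strand, so their counts are not fully separate.

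In *age-1; rde-4* against *rde-4*, edgeR called 0 of 69 members higher and 0 lower, where 1.59% of all genes were called (1.34% higher and 0.245% lower). At an unadjusted p under 0.05 there were 7 higher and 3 lower members (8.58% and 5.47% of all genes). DESeq2 called 1 of each, where it called 568 higher and 181 lower of all 16741 genes. Among markers of cells, edgeR called 4 of 115 tested cuticle collagens and 1 of 5 intestine genes higher. It called 0 of the sperm, oocyte, early embryo, muscle and neuron lists. Groups did not overlap for 9 higher and 5 lower members (10.9% and 9.64% of all genes), and the 95% interval stayed within 2-fold for 44 members and for 57.0% of all genes. *bath-26* was the nearest to the threshold, with a log2 fold change of 1.62 and an SE of 0.41 (edgeR, adjusted p = 0.0855) and no overlap between groups. *math-4* followed with −0.79 (SE 0.21, adjusted p = 0.0909). *bath-13* (F40B1.1, II from 2520842 to 2522060) had 1.68, 2.45 and 3.21 CPM in *age-1; rde-4* libraries, against 1.40, 1.49 and 1.30 CPM in *rde-4* libraries, which gave 0.81 with an SE of 0.26 on the log2 scale (edgeR, adjusted p = 0.177).

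The interaction asks whether losing RDE-4 acted differently in *age-1* than in WT worms. edgeR called 0 of 69 members in either direction, where 0.113% of all genes were called (0.0538% above 0 and 0.0597% below), and 5 members were above 0 and 0 below at an unadjusted p under 0.05 (3.80% and 8.17% of all genes). DESeq2 called 1 above 0 and 0 below, where it called 107 and 231 of all 16741 genes. The largest estimate was for *math-10*, at 4.29 (SE 1.18, 95% interval 1.72 to 6.86, edgeR adjusted p = 0.218), on 9, 8 and 36 counts in *age-1; rde-4*, 3, 2 and 11 in *rde-4*, 2, 10 and 4 in *age-1*, and 34, 21 and 42 in WT libraries. Both single mutants were below every WT library, and the third *age-1; rde-4* library was within the WT range.

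Over the 5 comparisons between genotypes, the 69 tested members gave 345 estimates, of which 8 were called, in 7 genes. Against WT, 4.49% of all genes were called in *rde-4*, 14.8% in *age-1* and 12.1% in *age-1; rde-4*. In *age-1; rde-4* it was 0.424% against *age-1* and 1.59% against *rde-4*. The 95% interval lay within 2-fold either way for 223 of the 345 and for 39 members in all 5 comparisons. By comparison it did so for 52.7% to 58.9% of all genes, and the share of all genes within 2-fold in all 5 was not counted. For these 39 members each interval, taken singly, left out a 2-fold change, and for the others at least 1 did not. The intervals are not adjusted for the number of genes or comparisons.

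The summed level of the whole set was 1282, 1466 and 1492 CPM in *age-1; rde-4*, 1476, 1511 and 1568 CPM in *rde-4* libraries, 1414, 1354 and 1402 CPM in *age-1*, and 1656, 1514 and 1576 CPM in WT libraries. The *age-1* libraries were all below the WT libraries, and the first *age-1; rde-4* library was the lowest of all 12. As the 5 highest genes make up most of this sum, it says little of the rare members.

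Pseudogenes were not all silent. Of 20, 13 had enough counts to test, and *math-27* (F36H5.2, II from 1767811 to 1770955) averaged 17.7 CPM. *bath-12* averaged 9.65 CPM, *bath-14* 6.17, *bath-22* 5.51 and *bath-11* 4.65 CPM. The pseudogene *math-32* (F59H6.4, II from 2010205 to 2011449) had 0.594, 0.618 and 0.580 CPM in *age-1* libraries, against 0.163, 0.384 and 0.186 CPM in WT libraries, a log2 fold change of 1.28 with an SE of 0.42 (edgeR, adjusted p = 0.0574) that did not pass. Pseudogenes and near-identical neighbours can take reads from one another, and how the counting treated reads with several matches is not given in the sources used here.

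The partners of BATH proteins were measured in the same libraries. Of CUL-3, its RING partner RBX-1, the adaptor MEL-26 and its targets MEI-1 and MEI-2, 0 of 5 genes were called by edgeR in any of the 6 comparisons, or by DESeq2, and *mel-26* and *rbx-1* in *age-1* against WT were the 2 estimates of 30 at an unadjusted p under 0.05. *cul-3* itself averaged 178 ± 30.7 CPM in *age-1; rde-4*, 191 ± 11.1 CPM in *rde-4* libraries, 191 ± 2.34 CPM in *age-1* and 192 ± 18.8 CPM in WT libraries (SD, n = 3 each). Of 5 other cullins 0 were called by edgeR or by DESeq2, and 5 of 30 estimates had an unadjusted p under 0.05. These were 2 of 5 in *age-1* and 3 of 5 in *age-1; rde-4* against WT, where 33.2% and 26.5% of all genes had one. For *cul-3* and its 4 listed partners it was 2 of 5 in *age-1* against WT, beside the same 33.2%. Among 12 genes for NEDD8, its conjugation and its removal by the COP9 signalosome, which together switch cullins on and off, *ned-8* fell in *age-1* against WT and the others were not called by edgeR in any comparison. In that comparison 7 of 12 had an unadjusted p under 0.05, all of them lower, where 12.2% of all genes were lower (33.2% in either direction). DESeq2 called 4 of these, where it called 1130 of 16741 genes lower (22.5% in either direction). The 12 genes summed to 1347, 1279 and 1299 CPM in *age-1* and 1658, 1385 and 1532 CPM in WT libraries, with WT replicate 1 the highest. They were not tested as a set. *ned-8* had 62.2, 59.9 and 64.1 CPM in *age-1* libraries, against 87.5, 81.5 and 80.0 CPM in WT libraries, a log2 fold change of −0.42 with an SE of 0.09 (edgeR, adjusted p = 0.0170). The call was lost without WT replicate 1, WT replicate 3 or *age-1* replicate 2, at −0.45 to −0.35 and adjusted p up to 0.0852.

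The *btb-* genes, a related family that carries a BTB domain, were called in 3 members. Of 20 tested, *btb-16* and *btb-17* rose in all 3 mutants against WT and *btb-2* rose in *age-1*. The 3 of 20 called in *age-1* against WT stand beside 14.8% of all genes called, and the 5 of 20 with an unadjusted p under 0.05 beside 33.2%. In *rde-4* against WT 2 of 20 were called, where 4.49% of all genes were, and in *age-1; rde-4* against WT 2 of 20, where 12.1% were. *btb-16* (F39E9.2) had 6.42, 13.1 and 11.2 CPM in *age-1; rde-4*, 4.51, 5.92 and 2.66 CPM in *rde-4* libraries, 4.49, 10.2 and 8.05 CPM in *age-1*, and 1.33, 1.82 and 0.651 CPM in WT libraries. Every mutant library was above every WT library, with log2 fold changes of 3.01 (SE 0.42, adjusted p = 0.00139), 1.78 (SE 0.43, adjusted p = 0.0367) and 2.58 (SE 0.42, adjusted p = 0.00635) from edgeR for the 3 mutants in that order. *btb-17* rose by 1.72, 1.21 and 1.49 in the same order on the log2 scale. The calls in *rde-4* were lost without any 1 of 6 libraries for *btb-16* (WT and *rde-4* replicates 1, *rde-4* replicate 2 and replicate 3 of each other genotype, at 1.46 to 1.85) and any 1 of 5 for *btb-17* (WT replicates 2 and 3, *rde-4* replicates 1 and 2, *age-1* replicate 3, at 0.94 to 1.23). That of *btb-17* in *age-1* was lost without *age-1* replicate 2 (1.38), and that of *btb-2* without *age-1* replicate 2 or WT replicate 3 (2.49 to 2.54, against 2.75 with all libraries). The same WT libraries enter all of these comparisons, and no difference between the *btb-* genes and the *math-* and *bath-* genes was tested.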

How the data were processed

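Total RNA of 12 populations was depleted of ribosomal RNA and made into strand-specific libraries. Reads were aligned to WBcel235 by the authors using HISAT2 2.0.5, with StringTie for quantification (version not given in the sources used here), and they deposited raw read counts per gene, whole numbers with no scaling. Whether the counting used strand is not given in the sources used here. Row names were matched to RefSeq (45305 by locus tag, 876 by transcript, 472 unmatched). R 4.3.3 and edgeR 4.0.16 were used: filterByExpr (16741 genes kept), TMM, 1 quasi-likelihood model of 4 groups, 2-sided tests, Benjamini-Hochberg adjustment over all genes, threshold 0.05. The 95% intervals use the SE and degrees of freedom of that fit. The procedure was tested on simulated data with 200 changed genes. Replicates differed by more than sampling noise (chi-square per gene 36.3 to 255) and were counted singly. Alternatives were RLE scaling, DESeq2 1.42.0, the filter left out or set to 50 normalized counts on average, a fit of only the genotypes compared, replicate number as a block, and each library left out. The genes named by rule were the called members, the 8 highest per coding kilobase, *math-33* and up to 4 called genes of each partner list. The other genes described were chosen after their values were seen. Members and lists were chosen with earlier results of these data known.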

Additional observations from a re-analysis of the deposited data

How the results depend on the processing

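Counts of members called depended on the setting. In *age-1* against WT, where 2 were higher and 2 lower, DESeq2 gave 7 lower, no filter 1 higher and 0 lower, a mean of 50 normalized counts 1 higher and 1 lower, and the groups compared alone 1 lower. Leaving out 1 library gave 0 to 3 higher and 0 to 10 lower. In *age-1; rde-4* against WT, where 1 was higher and 3 lower, DESeq2 gave 2 higher, no filter 0 higher and 1 lower, and the groups alone 1 lower, and leaving out 1 library gave 0 to 1 higher and 1 to 3 lower. Where edgeR called 0, DESeq2 gave 4 lower in *rde-4* against WT, 1 lower in *age-1; rde-4* against *age-1*, 1 higher and 1 lower in *age-1; rde-4* against *rde-4*, and 1 above 0 in the interaction, and leaving out any 1 library gave 0. No value of a named gene that was called changed direction under any of these alternatives. The cause of these differences was not tested. Over all genes the share called moved too: in *rde-4* against WT it was 4.49% by edgeR, 7.87% by DESeq2, 2.62% with the groups alone and 1.63% with no filter, in *age-1* against WT 14.8%, 22.5% by DESeq2 and 4.43% with no filter, and in *age-1; rde-4* against WT 12.1% and 5.22% with no filter. In *age-1; rde-4* it was 0.424% (2.65% by DESeq2) against *age-1* and 1.59% (4.47% by DESeq2) against *rde-4*. Without the first *age-1; rde-4* library these shares were 0.999% and 1.68% by edgeR, and that of the interaction was 0.164%. Leaving out 1 library gave 1.56% to 6.19% in *rde-4*, 2.06% to 24.5% in *age-1* and 5.73% to 15.0% in *age-1; rde-4* against WT. By direction, DESeq2 called 1130 of 16741 genes lower in *age-1* against WT and 299 lower in *rde-4* against WT. It called 1949 higher in *age-1; rde-4* against WT. RLE moved the median of all genes by at most 0.05 (log2).

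Replicate numbers were not taken to pair the samples, since the labels do not say that a number marks a shared batch or day and every same-numbered correlation of deviations was over 0.1 in 1 of 6 pairs of genotypes. The values hint at some pairing: the correlation was above 0 in 16 of 18 same-numbered pairs (−0.0235 to 0.367, median 0.157) and in 9 of 36 differently numbered pairs (−0.386 to 0.19, median −0.0634), and libraries correlated best with their own number in 27 of 36 cases. With replicate number as a block, 8 of 69 members were lower in *age-1* against WT, where 1605 of 16741 genes were lower. In *rde-4* against WT 1 member was lower, where 318 genes were. The share of all genes called in either direction was 27.4% and 7.08% in these comparisons. Of the 41 members at 1 CPM or less, 23 had too few counts for a test. For the rest of them the median SD of log2 CPM between replicates was 0.631, against 0.109 for members over 10 CPM. The part of counting error in this spread was not tested.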
